A study of Mus musculus with 4 samples.

Results

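The genes described here encode the digestive enzymes of the lysosome, proteins of its membrane, the proton pump that acidifies it, and a transcription factor that acts on such genes. They are 43 mouse genes picked by name: 4 leukocyte-rich cathepsins, 7 other cathepsins, 4 genes for further proteases, progranulin and cystatin C, 7 glycosidases, 4 genes for lipid hydrolases and saposins, 4 membrane proteins, 12 subunits and accessory proteins of the vacuolar ATPase (V-ATPase) and Tfeb. A gene was read where the platform's annotation gave a probe set its symbol and no other, which held for 40 of the 43, out of 12394 genes with such a probe set. Ctso, Cd63 and Atp6v0c were not analysed here. All 40 reached a mean signal of 100 over the arrays and were among the 8523 genes tested.

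Lysosomes break down proteins, glycans and lipids that reach them by endocytosis, phagocytosis and autophagy. Their hydrolases work best at an acid pH, which the V-ATPase keeps up by pumping protons: its peripheral V1 sector splits ATP and its membrane-bound V0 sector carries the protons across. Macrophages, which live in adipose tissue beside the adipocytes, are rich in lysosomes, and cathepsins S, H, C and Z are abundant in leukocytes. TFEB is a transcription factor that binds promoters of many lysosomal genes.

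Gonadal white adipose tissue (WAT) of male C57BL/6J mice, 3 months old, was compared between Fsp27 knockout mice, called FSP27-deficient here, and wild-type mice. FSP27 is a protein of the lipid droplet, encoded by Cidec. Total RNA of 5 mice per genotype was pooled in equal amounts to 45 μg, and each pool was hybridised in duplicate to Affymetrix arrays, 4 arrays in all. The values are signals of the Affymetrix software GCOS on a linear scale, and the 2 signals of a genotype are given below in the order of the duplicates. The RNA came from undivided tissue, so the arrays carry RNA of adipocytes, leukocytes, vessels and other cells together, and fewer cells of a type and less RNA per cell cannot be told apart. Duplicates of a pool differ by technique only, and therefore p-values measure technical spread and say nothing of the spread between mice.

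Each gene was read from its brightest probe set over the 4 arrays. Its log2(signal + 16) was compared with limma, FSP27-deficient minus wild-type, p was adjusted over the 8523 genes, and a gene is called higher or lower below where the adjusted p was under 0.05. A second, untested criterion, called the fold criterion, follows the threshold of the study, mean signals apart by 2 to the power of 0.5, cut to 2 decimals. The study also asks for consistency between duplicates without defining it, which was taken here as both same-numbered duplicates on the same side of a ratio of 1. A further description counts genes whose arrays were apart, meaning that both arrays of a genotype lay beyond both of the other. An exact two-sided permutation test over 4 arrays cannot give a p below 0.333 for a single gene.

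The signal of Cidec, the targeted gene, was 8564 and 8949 in FSP27-deficient WAT against 20491 and 18255 in wild-type WAT, 2.21-fold lower (adjusted p = 5.7e-04 from limma). No source used here says whether the deletion takes out its probe set. The adipocyte markers Adipoq, Fabp4 and Lpl were at 43790.4 or more on every array. Of 8 adipocyte markers tested, Pnpla2 was called higher and Lep lower. Arrays were apart on the higher side for 7, against 22.7% of all genes tested. Leukocyte and macrophage markers stood lower. Of 19 tested, 14 were called lower, against 6.51% of all genes tested, and 0 higher (0 also higher at an unadjusted p under 0.05). All 19 had a negative log2 fold change, as had 4847 of all 8523 genes tested, and the median was -1.26. Summed over the 19, the signal came to 10072 and 11343 for FSP27-deficient WAT and to 27003 and 25572 for wild-type WAT. The largest called differences among them were those of Lyz2, lysozyme, at 1511 and 1929 against 6707 and 5114, of Ptprc, which encodes CD45, at 152 and 116 against 467 and 468, and of Tyrobp, a myeloid adaptor, at 358 and 471 against 1406 and 1259. None of the 19 was at a signal of 0 on any array. Detection calls were not used here, so this does not show that the transcripts were present. Of 5 dendritic cell markers tested 4 were called lower, and of 3 granulocyte markers 1, Prtn3, while the others, S100a8 and Mpo, had log2 fold changes of 0.51 and 1.59 without a call. Limma called none of 1 lymphocyte marker and 2 epididymis markers, also at an unadjusted p under 0.05. Listed leukocyte markers under the signal filter were not tested, and they went both ways. Log2 fold changes were 2.13 for Cd3e, 0.98 for Cd3d and 2.31 for Elane. They were -0.51 for Itgam, -0.84 for Ciita, -1.36 for S100a9 and -1.13 for Cd79a. The part of these cells in the lysosomal results below was not tested.

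Log2 fold changes were positive for 14 of the 40 lysosomal genes and negative for 26, beside 3676 and 4847 of all 8523 genes tested. Of the 40, limma called 3 higher in FSP27-deficient WAT, or 7.5%, near the background of 5.78% of all genes tested. It called 7 lower, or 17.5%, against 6.51%. The genes called higher were Atp6v1a, Atp6v1h and Tfeb. Those called lower were Ctsh, Ctss, Ctsl, Lgmn, Cst3, Hexa and Glb1. Each of the 7 encodes a hydrolase or a hydrolase inhibitor, as do most of the 40 by the choice of the list. By the fold criterion 7 were higher, with a background of 14.5%, and 12 lower, with a background of 20.8%. Arrays lay apart on the higher side for 12 genes, with a background of 22.7%, and on the lower side for 22, with a background of 31.4%, and overlapped for 6. The median log2 fold change was -0.28 over the 40 genes and -0.08 over all genes tested. The calls depended on the handling of the variance. The methods' test, the Student's t-test that the study names for group differences, was run on the same log2 values without shrinkage. It called 0 of 8523 genes after adjustment, 1309 at an unadjusted p under 0.05. Limma without its trend, which still shrinks variances, called 1 gene of the 8523, which was none of these 40.

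**Figure D1:**
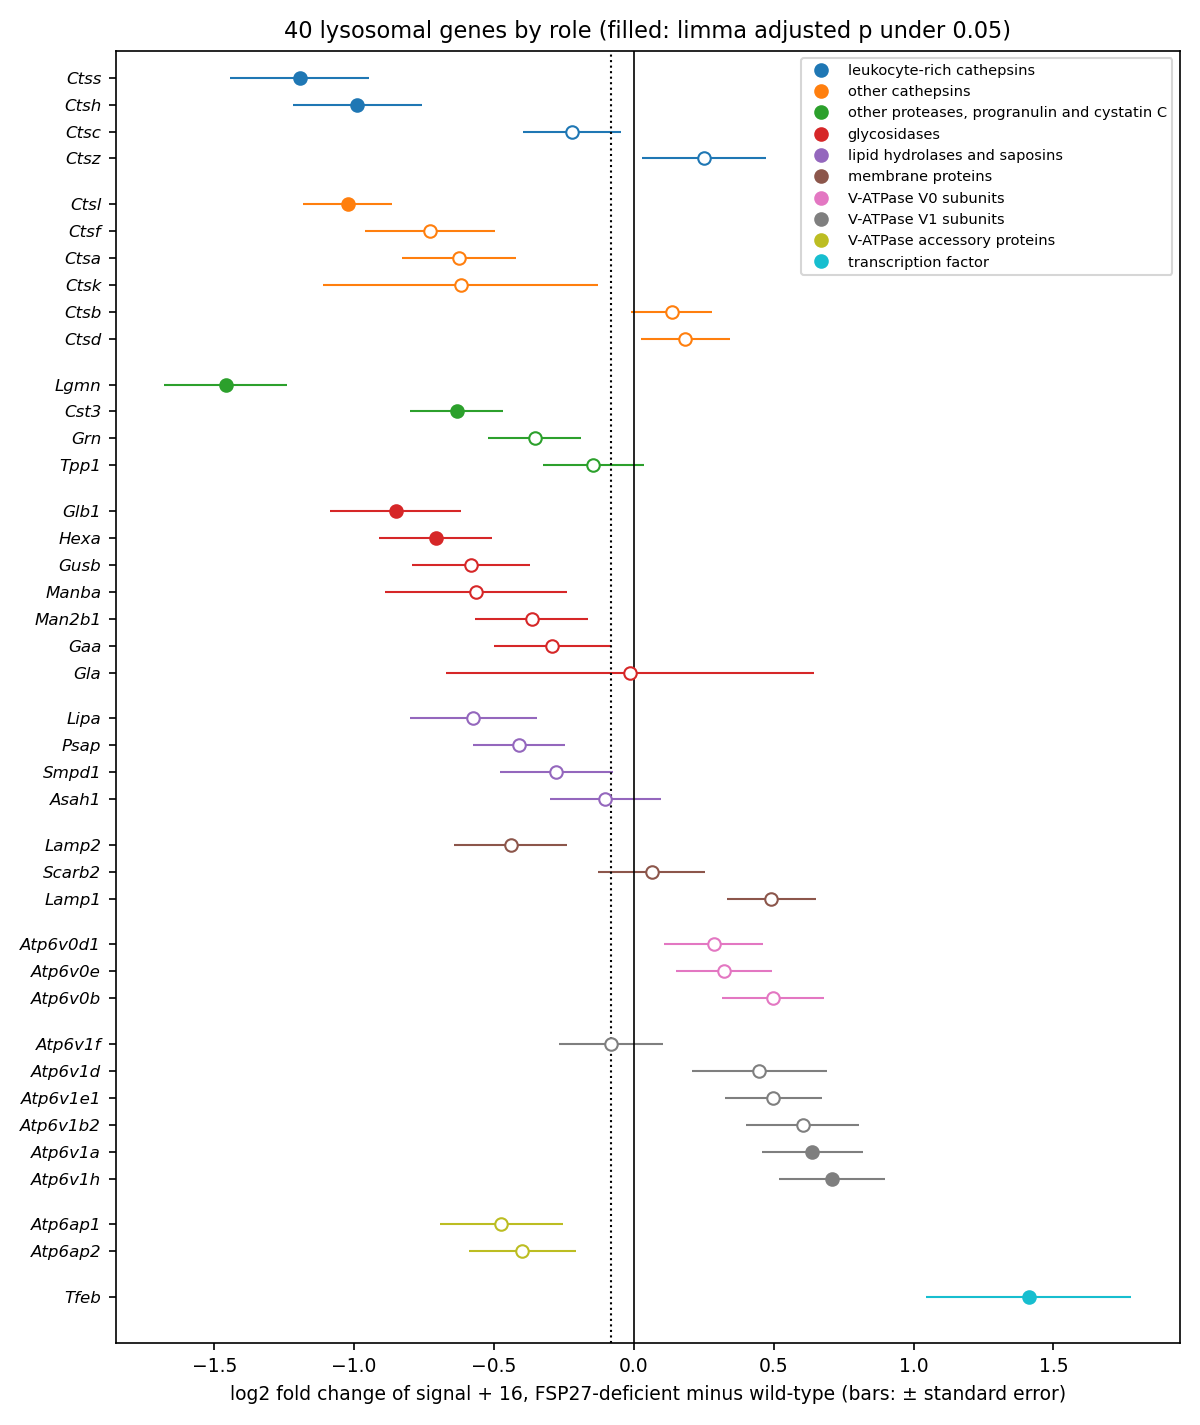
Log2 fold change of signal + 16, FSP27-deficient minus wild-type, for the 40 lysosomal genes, grouped by role and coloured by it. Points are limma estimates, bars are standard errors, filled points have an adjusted p under 0.05, and the dotted line is the median of all genes tested, -0.08. The filled points on the left are enzymes and cystatin C, from a list mostly of hydrolases. Those on the right are Atp6v1h and Atp6v1a, of the proton pump, and Tfeb.

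Among the cathepsins that leukocytes hold in plenty, 2 of 4 were called lower, against 6.51% of all genes tested. Limma called 0 higher, also at an unadjusted p under 0.05. Ctss encodes cathepsin S, a cysteine protease that trims the MHC class II invariant chain in antigen-presenting cells. Its signal was 493 and 339 in FSP27-deficient WAT against 1070.4 and 855 in wild-type WAT, with no overlap. That is 2.32-fold lower, a log2 fold change of -1.19 with a standard error (SE) of 0.25 and an adjusted p = 0.0083 from limma. Ctsh encodes cathepsin H, an aminopeptidase. It read 615 and 934 against 1503 and 1539, again with the arrays apart (-0.99 on the log2 scale, SE 0.23, adjusted p = 0.015). Ctsc, which encodes cathepsin C, the activator of granule serine proteases, was at 2834 and 2473 against 3082 and 3099. Its arrays were apart, but the difference of -0.22 was little more than its standard error of 0.18 (adjusted p = 0.48). Ctsz encodes cathepsin Z, a carboxypeptidase, and went the other way without passing the test. Its signal was 7375 and 4534 in FSP27-deficient WAT against 5401 and 4367 in wild-type WAT, an overlap of the genotypes (0.25 on the log2 scale, SE 0.22, adjusted p = 0.54). Its value rested on the FSP27-deficient duplicates, being -0.099 without the first and 0.60 without the second, when it was called higher (adjusted p = 0.045). The call of Ctsh was lost without the first FSP27-deficient array (adjusted p = 0.055), the first wild-type array (0.089) or the second (0.095), and that of Ctss without the first wild-type array (0.11).

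Of the other cathepsins, Ctsl alone was called. It encodes cathepsin L, a broadly expressed cysteine endopeptidase, and its signal was 5066 and 4791 in FSP27-deficient WAT against 9575 and 10498 in wild-type WAT. The duplicates lay close together and the genotypes far apart, 2.04-fold (-1.02 on the log2 scale, SE 0.16, limma adjusted p = 0.0015). The call held without any of the 4 arrays. Ctsa, the protective protein of lysosomal galactosidase and neuraminidase, and Ctsf, another cysteine cathepsin, missed the test with their arrays apart. Ctsa was at 1011 and 1312 against 1871 and 1708 (adjusted p = 0.067), and Ctsf at 423 and 568 against 827 and 820.0 (adjusted p = 0.060). Ctsb and Ctsd did not share this direction. Ctsb, whose cathepsin B is a cysteine protease, was at 21061 and 20309 in FSP27-deficient WAT against 18642 and 19002 in wild-type WAT, apart on the higher side but by 0.14 on the log2 scale with a standard error of 0.14. Ctsd, whose cathepsin D is an aspartic protease, was at 7623 and 7416 against 6985 and 6273 (0.18 on the log2 scale, adjusted p = 0.53). Under quantile normalization both turned, to -0.021 and -0.029. For Ctsk, the collagen-degrading cathepsin K of osteoclasts, the FSP27-deficient duplicates read 76.8 and 255 and the wild-type ones 235 and 220.2. The first of these arrays alone set the direction of Ctsk, since its log2 fold change of -0.62 became 0.15 without it and -1.39 without the second, when it was called lower (adjusted p = 0.048).

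Over the 4 leukocyte-rich cathepsins the median log2 fold change was -0.61, and over the 6 others it was -0.62. Both lay below the median of all genes tested, -0.08, and above the -1.26 of the leukocyte and macrophage markers. The named split of the cathepsins thus came with no gap in their medians, while each list held genes on both sides of 0. The median of the others rested on the FSP27-deficient duplicates, being -0.17 without the first and -0.87 without the second.

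**Figure D2:**
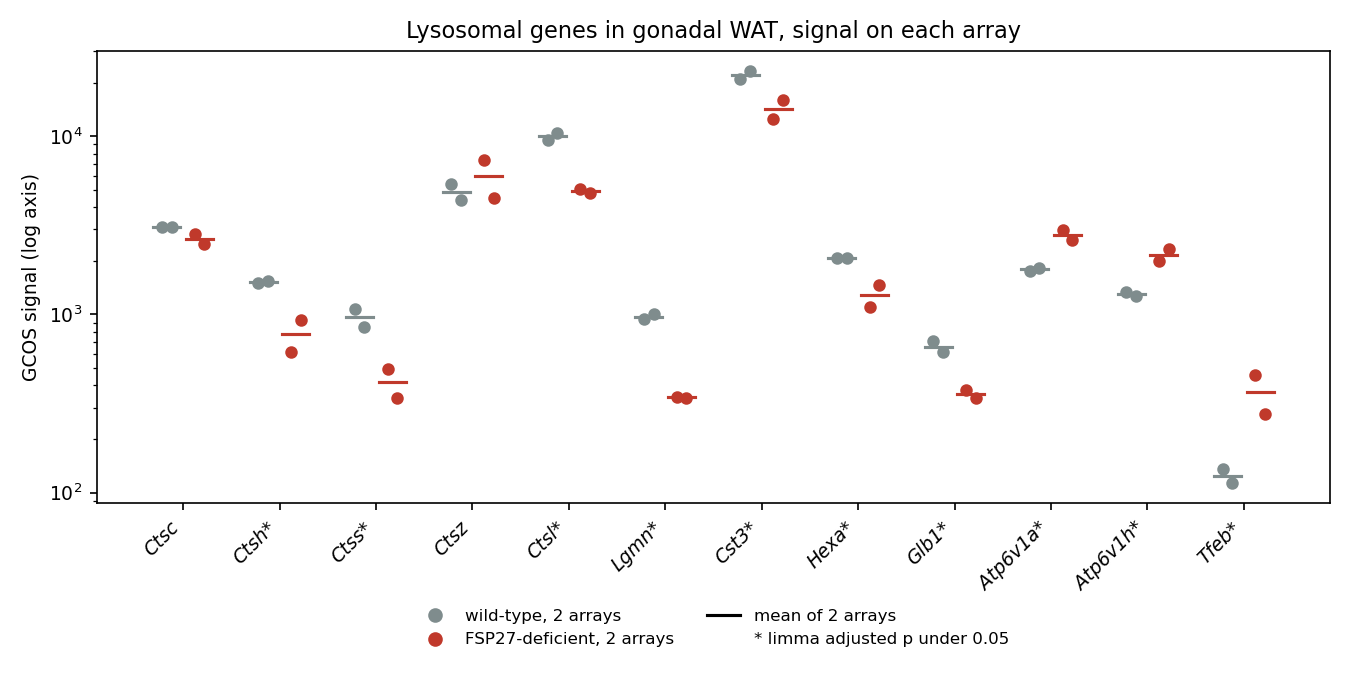
GCOS signal on a log axis for the 10 lysosomal genes called by limma (asterisk) and for Ctsc and Ctsz. Grey points are the 2 wild-type arrays, red points the 2 FSP27-deficient arrays, and bars their means. In every gene with an asterisk the genotypes do not overlap, whereas those of Ctsz do.

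Lgmn had the largest fall of the 40 genes. It encodes legumain, the asparaginyl endopeptidase that processes several cathepsins into their mature chains. The signal was 346 and 340.2 in FSP27-deficient WAT against 939.9 and 1003 in wild-type WAT, 2.83-fold lower (-1.46 on the log2 scale, SE 0.22, limma adjusted p = 0.0013), and the call held without any of the 4 arrays. Cst3 encodes cystatin C, a secreted inhibitor of cysteine cathepsins and of legumain. It read 12484 and 16068 against 20872 and 23159, which is 1.54-fold lower with the arrays apart (-0.63 on the log2 scale, SE 0.17, adjusted p = 0.026). Cst3 was called in the same direction as Lgmn, Ctsh, Ctss and Ctsl, while the further cysteine cathepsin genes Ctsb, Ctsc, Ctsf, Ctsk and Ctsz were not called. Grn, the gene for progranulin, a secreted protein that lysosomes cleave into granulins, was at 3506 and 3669 against 4677 and 4507 (-0.35 on the log2 scale, adjusted p = 0.20). Tpp1, whose tripeptidyl peptidase takes tripeptides from the ends of proteins, was at 2139 and 2268 against 2593 and 2288 (-0.14 on the log2 scale, adjusted p = 0.68). The call of Cst3 was lost without the first FSP27-deficient array (adjusted p = 0.064), the first wild-type array (0.11) or the second (0.22), and with each array centred on its median (0.14).

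The glycosidases pointed one way. All 7 had a negative log2 fold change, as had 4847 of all 8523 genes tested. Gla turned to 0.057 with arrays centred on their medians, to 0.11 without the second FSP27-deficient array and to 0.33 without the first wild-type array. Arrays were apart on the lower side for 6, against 31.4% of all genes tested. Limma called 2 lower, against 6.51% of all genes tested, and 0 higher, also at an unadjusted p under 0.05. Glb1 encodes beta-galactosidase, which takes galactose from gangliosides and keratan sulfate. Its signal was 379 and 339 in FSP27-deficient WAT against 706 and 614 in wild-type WAT, 1.84-fold lower (-0.85 on the log2 scale, SE 0.23, limma adjusted p = 0.033). Hexa encodes the alpha subunit of beta-hexosaminidase, the enzyme that degrades GM2 ganglioside. It read 1097 and 1466 against 2082 and 2085, 1.63-fold lower (-0.71 on the log2 scale, SE 0.20, adjusted p = 0.040). Gusb, the gene of beta-glucuronidase, met the fold criterion at 604 and 693 against 1006 and 949.7, with an adjusted p = 0.099. Manba, the gene of beta-mannosidase, met it at 255 and 167 against 349 and 282, with an adjusted p = 0.31. Man2b1, which encodes an alpha-mannosidase, was at 2008 and 1454 against 2220 and 2193, and Gaa, which encodes the glycogen-degrading acid alpha-glucosidase, at 728 and 689.7 against 829 and 915. Neither met any criterion beyond arrays apart. Gla, the alpha-galactosidase gene, lay just above the signal filter at 109 and 89.2 against 131 and 75.5, with overlap and a standard error of 0.66 on the log2 scale. Neither call held without the first wild-type array (adjusted p = 0.29 for Glb1 and 0.20 for Hexa) or the second (0.13 and 0.19), that of Glb1 was lost without the second FSP27-deficient array (0.067) and that of Hexa without the first (0.14), and centring the arrays on their medians ended both (0.062 and 0.13).

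None of the 4 genes for lipid hydrolases and saposins was called by limma, and 2 were lower at an unadjusted p under 0.05. Psap, the precursor of the saposins that present sphingolipids to their hydrolases, was at 6710 and 8207 in FSP27-deficient WAT against 9915 and 9842 in wild-type WAT. Its arrays were apart, with a log2 fold change of -0.41, a standard error of 0.16 and an adjusted p = 0.14. It was called lower under quantile normalization (-0.62, adjusted p = 0.025) and without the second FSP27-deficient array (adjusted p = 0.034). Lipa encodes lysosomal acid lipase, which frees fatty acids and cholesterol from triglycerides and cholesteryl esters inside the lysosome. It met the fold criterion at 506 and 427 against 733 and 667 (-0.57 on the log2 scale, SE 0.23, adjusted p = 0.13). Smpd1, acid sphingomyelinase, was at 1442 and 1149 against 1660 and 1471, and Asah1, acid ceramidase, at 1573 and 1479 against 1839 and 1460, the latter with overlap. Taking glycosidases and this list as 11 hydrolases, all 11 log2 fold changes were negative, as were those of 4847 of all 8523 genes tested. Exceptions were those given for Gla, and Asah1 at 0.063 without the first wild-type array. The median was -0.41. Without the first FSP27-deficient array it was -0.49, beside -0.17 for the other cathepsins. The summed signal of the 11 was 15411 and 16159 on the FSP27-deficient and 21470 and 20553 on the wild-type arrays. Psap, which was not called, was the largest part of these sums, at 6710 and 8207 against 9915 and 9842. Its other probe set had a log2 fold change of -0.076. The sums therefore say little of how the 11 genes went together.

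The 3 membrane proteins measured gave no common direction, and limma called 0 of them in either direction (1 higher and 1 lower at an unadjusted p under 0.05). Lamp1, a heavily glycosylated protein that coats the inner face of the lysosomal membrane, was at 7916 and 7220 in FSP27-deficient WAT against 5314 and 5434 in wild-type WAT (0.49 on the log2 scale, SE 0.16, adjusted p = 0.067). Its kin Lamp2 was at 2620 and 1951 against 2773 and 3406 (-0.44 on the log2 scale, adjusted p = 0.20). For both the arrays were apart, in opposite directions. Scarb2, which encodes LIMP-2, the carrier of glucocerebrosidase to the lysosome, was at 2168 and 2632 against 2105 and 2482, with overlap.

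Of the 9 V0 and V1 subunits of the proton pump measured, 8 had a higher signal on both FSP27-deficient arrays than on either wild-type array. Of all genes tested, 22.7% did. The fold criterion was met on the higher side by 6, against 14.5% of all genes tested. Limma called 2 higher, against 5.78% of all genes tested, and 0 lower, also at an unadjusted p under 0.05. Of the 6, 4 met the criterion at 2 to the power of 0.5 without rounding, where Atp6v0b and Atp6v1e1 dropped out, 2 without the first FSP27-deficient array, Atp6v1a and Atp6v1h, and 3 without the first wild-type array, these and Atp6v1b2. Atp6v1h encodes subunit H, a regulator of V1. Its signal was 1985 and 2321 in FSP27-deficient WAT against 1343 and 1273 in wild-type WAT, 1.65-fold higher (0.71 on the log2 scale, SE 0.19, adjusted p = 0.029). Atp6v1a encodes the catalytic subunit A, at which ATP is split. It read 2997 and 2616 against 1754 and 1833, 1.56-fold higher (0.64 on the log2 scale, SE 0.18, adjusted p = 0.038). Both calls were lost without the first wild-type array (adjusted p = 0.15 for Atp6v1h and 0.24 for Atp6v1a) or the second (0.19 and 0.17), that of Atp6v1h without the second FSP27-deficient array (0.079) and that of Atp6v1a without the first (0.11), and that of Atp6v1a was lost with arrays centred on the median (0.061) or quantile normalised (0.052).

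Of the remaining V1 subunits, Atp6v1b2, the B subunit beside A in the catalytic head, was at 2712 and 1975 against 1526 and 1511 (adjusted p = 0.076). Atp6v1e1, of a peripheral stalk, was at 4082 and 3973 against 2637 and 3068 (0.50 on the log2 scale, SE 0.17, adjusted p = 0.086). Atp6v1d, of the central rotor, was at 2317 and 1371 against 1257 and 1349, so that its second FSP27-deficient array lay hardly above the wild-type arrays. Atp6v1f was the exception, at 2068 and 1813 against 2148 and 1959 (-0.08 on the log2 scale, adjusted p = 0.83), with overlap. In the V0 sector limma called 0 of 3 (1 higher and 0 lower at an unadjusted p under 0.05). Atp6v0e was at 4562 and 4824 against 3421 and 4108, Atp6v0b, of the proton-carrying ring, at 2979 and 2778 against 1881 and 2197, and Atp6v0d1 at 3110 and 2748 against 2454 and 2339. Their log2 fold changes of 0.32, 0.50 and 0.29 had adjusted p-values of 0.28, 0.10 and 0.36. Both accessory proteins had lower signals in FSP27-deficient WAT with their arrays apart, which limma did not call in either direction, nor was either at an unadjusted p under 0.05. Atp6ap1, a chaperone-like glycoprotein of the V0 sector, was at 1792 and 2852 against 3171 and 3119.8, and Atp6ap2, also known as the prorenin receptor, at 1989 and 1568 against 2305 and 2362.

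The median log2 fold change was 0.50 over the 9 V0 and V1 subunits, 0.45 with the accessory proteins, -0.41 over the 11 hydrolases and -0.62 over all 10 cathepsins measured. These medians are descriptions. No test compared the groups. The 2 signs, positive for the pump with its accessory proteins and negative for the hydrolases and for both groups of cathepsins, held under the 13 other settings run for the medians, among them the replicate block and the test of each probe set, which leave a median as it is. The adipocyte markers, with a median of 0.28, lay on the same side as the pump. Their list holds Slc2a4 (GLUT4) and Lep, which the study itself reports as changed in this WAT, so the median is no measure of adipocyte share. The summed signal of these markers was 250973 and 262438 on the FSP27-deficient and 198266 and 231475 on the wild-type arrays. Most of it came from Adipoq, Fabp4, Lpl and Retn. Over all genes tested the sums were also higher, at 1.01e+07 and 1.04e+07 against 9.58e+06 and 9.90e+06. Whether more adipocyte RNA per array had a part in the pump's levels was not tested.

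**Figure D3:**
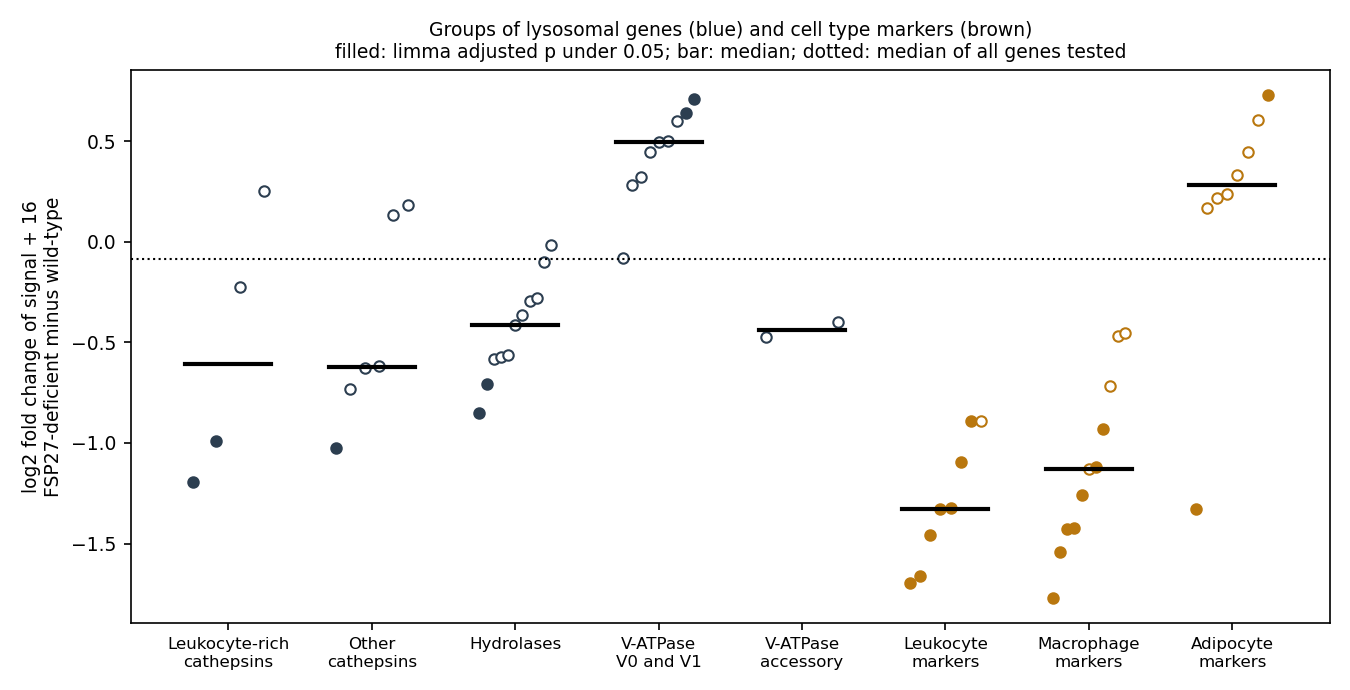
Log2 fold change of signal + 16, FSP27-deficient minus wild-type, of each gene in 5 groups of lysosomal genes (blue) and 3 lists of cell type markers (brown). Bars are medians, filled points have an adjusted p under 0.05 in limma, and the dotted line is the median of all genes tested, -0.08. The median of the V-ATPase V0 and V1 subunits, 0.50, lies with that of the adipocyte markers above the line. The medians of the other lysosomal groups drawn lie below it with those of the leukocyte and macrophage markers. Not all groups are drawn. Medians of the membrane proteins (0.063), granulocyte markers (0.51) and the 1 lymphocyte marker (0.58) were above the line, as was Tfeb. Those of the dendritic cell (-0.91) and epididymis markers (-0.17) were below it.

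Tfeb had the largest rise of the 40 genes. TFEB is held in the cytoplasm by phosphorylation and moves to the nucleus when lysosomes are stressed or nutrients run short, so that its mRNA is only part of its activity. The signal was 459 and 277 in FSP27-deficient WAT against 135 and 113 in wild-type WAT. The genotypes did not overlap, although the FSP27-deficient duplicates were 1.66-fold apart, and the mean was 2.95-fold higher (1.413 on the log2 scale, SE 0.37, limma adjusted p = 0.025). The call was lost without the first FSP27-deficient array (adjusted p = 0.14), the first wild-type array (0.077) or the second (0.12), and with no filter on low signals (0.094). Of its relatives in the MiT/TFE family, Mitf was tested and read 78.3 and 112 in FSP27-deficient WAT against 206 and 237 in wild-type WAT, a log2 fold change of -1.11 with a standard error of 0.46 and an adjusted p = 0.15.

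TFEB binds the CLEAR element, an E-box whose 8 inner bases are TCACGTGA. Since some of these genes moved with Tfeb and others against it, the 250 bases upstream of RefSeq transcript starts of the mouse assembly GRCm38.p6 were searched for TCACGTGA and for the shorter CACGTG, which lies within it. Both read the same on either strand. Of the 43 genes, 38 had a window, some at more than 1 start. TCACGTGA was found in 4 of the 38 (Atp6v1a, Ctsa, Ctsd and Gla), or 10.5%. It was found in 1.85% of 6901 tested genes with a window and 0.907% of all 27025 genes with one. CACGTG was found in 11 of the 38, or 28.9%, against 10.3% of the tested genes and 6.86% of all genes with a window. Of the genes called by limma, 8 had a window, 4 of them with CACGTG: Atp6v1a, which was higher, and Glb1, Lgmn and Ctsl, which were lower. These 4 are printed 5′ to 3′ on the strand of the gene, with the match in capitals, because they carry the same core and moved in different directions. The start of Glb1 is the 5′ end of the gene. The others are inner starts, within the annotated gene by 443 bases for Atp6v1a, 636 for Lgmn and 252 for Ctsl.
Atp6v1a, chr16:44139364-44139411, minus strand, match 132 bases before the transcript start: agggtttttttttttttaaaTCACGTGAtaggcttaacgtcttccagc
Glb1, chr9:114401010-114401055, plus strand, match 48 bases before the transcript start: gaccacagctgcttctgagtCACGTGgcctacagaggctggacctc
Lgmn, chr12:102439116-102439161, minus strand, match 49 bases before the transcript start: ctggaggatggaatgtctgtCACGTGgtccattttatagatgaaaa
Ctsl, chr13:64370731-64370770, minus strand, match 236 bases before the transcript start: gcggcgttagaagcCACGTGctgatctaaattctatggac

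The genes that share the core thus included the catalytic pump subunit, higher 1.56-fold, and Lgmn, lower 2.83-fold. Lamp1 and Atp6v0b, which were not called and had positive log2 fold changes, also held CACGTG, as did Ctsf and Gaa, with negative ones. A match is a description of the sequence and no measure of binding, and a part of TFEB in these changes was not tested.

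Further probe sets checked the choice of 1 per gene. The 40 genes had 70 probe sets in all, 22 genes with 1 and 18 with several. Of the 30 probe sets not used above, 26 had the sign of the one used. For the V0 and V1 subunits it was 8 of 9. The second probe set of Atp6v1a gave 0.49 beside 0.64, those of Atp6v1d gave 0.42 and 0.48 beside 0.45, and those of Atp6v0b gave 0.43 and 0.56 beside 0.50, all as log2 fold changes. Atp6v1e1 was the gene whose probe sets disagreed by at least 0.5 in opposite directions. Its brightest gave 0.50, another with signals of 479 and 298 in FSP27-deficient WAT against 605 and 324 in wild-type WAT gave -0.22, and a dim one gave 1.16. The other probe sets of Ctsz gave 0.62 and 0.33, on the same side as the one used, and those of Grn -0.68 and -0.27, the former past the test adjusted over probe sets (adjusted p = 0.032). Besides Atp6v1e1, a probe set of opposite sign was found for Ctsb (-0.065 beside 0.14), Lamp2 (0.029 beside -0.44) and Tpp1 (0.081 beside -0.14). Others lay near 0, as those of Psap (-0.076 beside -0.41) and Lipa (-0.019 beside -0.57). The genes called lower, and Atp6v1h and Tfeb, had 1 probe set each and could not be checked in this way.

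**Figure D4:**
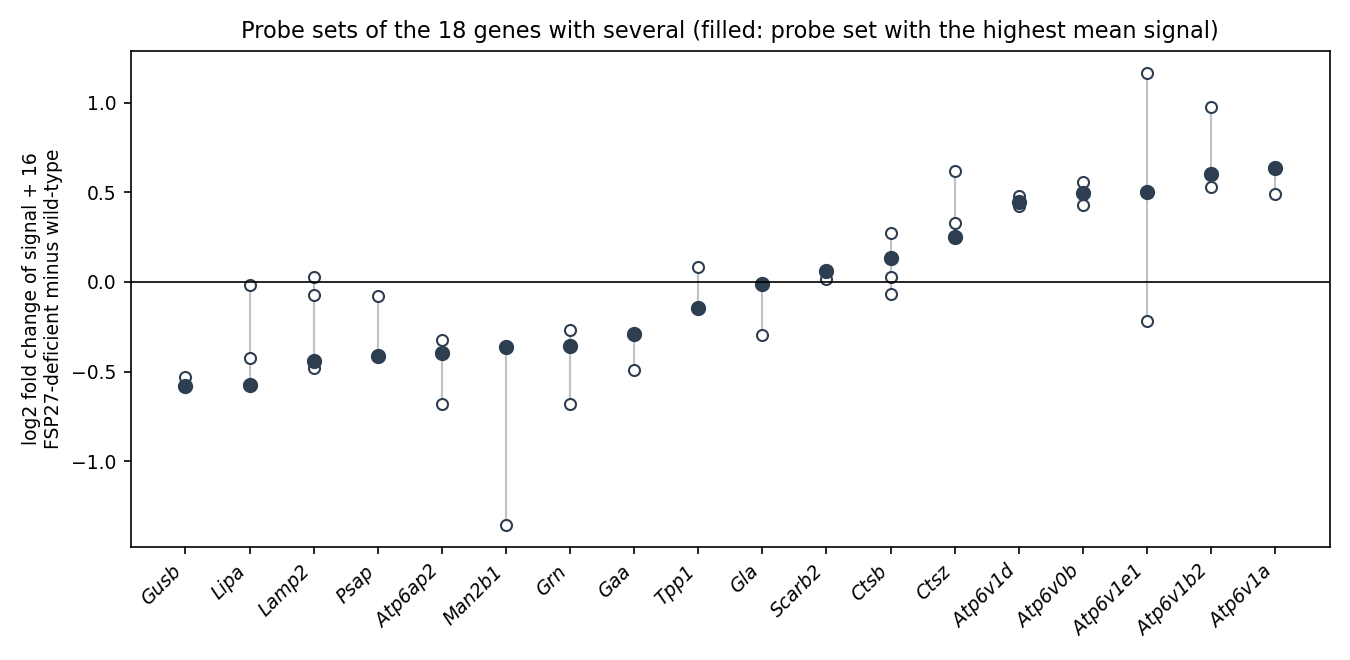
Log2 fold change of signal + 16, FSP27-deficient minus wild-type, for every probe set of the 18 lysosomal genes with several, ordered by the brightest probe set (filled). Open points are the other probe sets and grey lines join those of a gene. The probe sets of Atp6v1e1 spread from -0.22 to 1.16, and those of Atp6v1d, Atp6v0b and Atp6v1a stay above 0.

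Other genes of the lysosome were read from a list of 81 set up by function, with earlier results of these data known. Of these, 54 were tested. Limma called 2 higher, or 3.70%, against 5.78% of all genes tested, and 6 lower, or 11.1%, against 6.51%, and the median log2 fold change was -0.17. Among 22 further hydrolases and activators, 4 were called lower, or 18.2%, and 1 higher, or 4.55%, the latter near the background of 5.78%. Ctbs, chitobiase, which takes apart the core of N-glycans, was at 159.5 and 69.4 in FSP27-deficient WAT against 292 and 362 in wild-type WAT (-1.48 on the log2 scale, adjusted p = 0.041). Fuca2, a fucosidase, was at 131 and 147 against 419 and 326 (-1.32 on the log2 scale, adjusted p = 0.021). The called genes Naaa, an acid amidase, and Arsa, the sulfatase of sulfatide, were named after their values were seen, with log2 fold changes of -0.92 and -0.78. Galc, which takes galactose from galactosylceramide, went up, at 617 and 570 against 386 and 230.0 (0.95 on the log2 scale, adjusted p = 0.044).

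Of 14 further membrane and transport proteins, 2 were called lower, or 14.3%, against 6.51% of all genes tested. The 1 called higher, or 7.14%, was near the background of 5.78%. Cd68, the lysosomal glycoprotein used as a macrophage marker, was at 292 and 338 in FSP27-deficient WAT against 618 and 1092 in wild-type WAT (-1.34 on the log2 scale, adjusted p = 0.0086), and Slc11a1, the metal transporter of phagocyte lysosomes, at 335 and 265 against 605 and 584 (-0.96 on the log2 scale, adjusted p = 0.024). Tmem192, a lysosomal membrane protein found in many cell types, was at 1250 and 1405 against 654 and 658 (0.997 on the log2 scale, adjusted p = 0.0076). Limma called 0 of the 8 tested genes that sort and process lysosomal enzymes, with 1 lower at an unadjusted p under 0.05. Of 7 further V-ATPase subunits it called 0, with 2 higher at an unadjusted p under 0.05 and a median log2 fold change of 0.32. Of these, 3 were negative, Atp6v0a1 (-0.42, arrays apart), Tcirg1 (-0.49) and Atp6v0e2 (-0.35). That median is the value of Atp6v1g1, and it depends on the probe set used. Another probe set of Atp6v1g1 gave -0.37, and a dim one 0.99. For Atp6v1c1 the others gave -0.16 and 0.34 beside 0.54, and for Atp6v0a1 0.03, -0.29 and 0.30. Of 2 further cathepsins and cystatins limma called 0, and none was at an unadjusted p under 0.05.

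The spread between duplicates limits all of these values. Over the 40 genes the higher signal of a duplicate pair was a median 1.20-fold of the lower in FSP27-deficient and 1.10-fold in wild-type WAT. It reached the ratio of the fold criterion for 8 genes in FSP27-deficient WAT, with a maximum of 3.32 for Ctsk, and for 1 gene in wild-type WAT. The 8 included Ctsh, Ctss and Tfeb among the genes called. Ctsl and Lgmn, whose calls held without any array, had FSP27-deficient duplicates 1.06-fold and 1.02-fold apart.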

How the data were processed

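RNA pools of gonadal WAT were hybridised to 4 Affymetrix arrays, 2 per genotype, whose number limits the precision. The authors processed the arrays with GCOS, and the values they deposited are a linear intensity for each of 22690 probe sets. Neither the version of GCOS nor its scaling target is given in the sources used here. Median signals were 165 to 193. Of the probe sets, 20393 had 1 gene symbol in the platform's annotation, 691 several and 1606 none here. In R 4.3.3 with limma 3.58.1, log2(signal + 16) was fitted with lmFit and eBayes with a trend, with Benjamini-Hochberg adjustment over all genes whose mean signal reached 100. The fit had 2 residual degrees of freedom, 12.1 with the prior. Named genes were those called, the leukocyte-rich cathepsins, Tfeb, Cidec, the brightest gene of each role, up to 3 called genes per role of the other lysosomal genes and at most 4 markers, and the remaining genes of the 43 by role. The adipocyte markers named were picked after their values were seen. The genes and lists were chosen with earlier results of these data known.

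Alternatives were a pseudocount of 1 or 64, no filter on signal or a filter at 200, quantile normalization, centring on the array median, averaging the probe sets of a gene, testing each probe set, no trend, the methods' t-test, the replicate number as a block and each array left out. Where an array was left out, its remaining duplicate was taken to vary as the other genotype does. A fold criterion of 2 to the power of 0.5 was added after the data were seen. On the log2(signal + 16) scale the change of low signals is understated.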

Additional observations from a re-analysis of the deposited data

How the results depend on the processing

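Pseudocounts of 1 and 64, a filter of 200 and every probe set on its own, counted through the brightest, left 3 lysosomal genes called higher and 7 lower. With no filter 4 were lower, likewise with centring, and without the trend, or by the methods' test, 0 were higher and 0 lower. With the replicate number as a block 6 were higher and 9 lower. The deviations of same-numbered arrays had a correlation of 0.065 over 2 pairs, which are too few to tell whether such arrays shared a batch. Without 1 array, 0 to 6 were higher and 2 to 11 lower, the highest counts without the second FSP27-deficient array. The genes higher by the fold criterion were 4 when probe sets of a gene were averaged and 3 to 9 without 1 array. With a threshold of 2 to the power of 0.5 they were 5, Atp6v0b and Atp6v1e1 dropping out.

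Group medians kept their sign. The median of the hydrolases was -0.49 with a filter of 200, -0.34 with centring, -0.47 with the mean of probe sets and -0.49 to -0.28 without 1 array. That of the V-ATPase was 0.39 with quantile normalization, 0.52 with centring and 0.36 to 0.52 without 1 array, and that of the other cathepsins -0.87 to -0.17 without 1 array. The 10 called genes kept their direction under every setting. Calls were lost for Cst3, Hexa, Glb1 and Tfeb with no filter, for Cst3, Hexa, Glb1 and Atp6v1a with centring, for Glb1 and Atp6v1a with quantile normalization, and for Cst3 and Atp6v1a with averaged probe sets. Psap gained a call with quantile normalization. Ctsl and Lgmn lost theirs only without the trend or by the methods' test. Genes that changed sign were not called with all arrays: Ctsb (-0.021) and Ctsd (-0.029) with quantile normalization and Gla (0.057) with centring. Without 1 array, the log2 fold change was -0.099 to 0.60 for Ctsz, -1.39 to 0.15 for Ctsk, -0.35 to 0.33 for Gla, -0.27 to 0.063 for Asah1, -0.076 to 0.20 for Scarb2 and -0.18 to 0.012 for Atp6v1f. The cause was not tested. Low signals, as of Gla and Ctsk, gave the largest standard errors.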
